A study of Mus musculus with 33 samples.

Results

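Of the 24421 genes counted in these libraries, 10 are described here: the interleukin-1 family ligands Il1a, Il1b and Il18, the antagonist Il1rn, the decoy Il1r2, the soluble inhibitor Il18bp and the receptor genes Il1r1, Il1rap, Il18r1 and Il1rl1. They were chosen by symbol, with results of these data known, because Il1r2 was among the strongest gains in Tim4- Kupffer cells (KCs). The levels of all members in Tim4- KCs, and in any comparison that holds these libraries, are therefore given as a description without a test. Each of the 33 libraries lists all 10 members, some of them with no count.

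The study asked what the transcription factor ZEB2 does in resident macrophages (macs), and sequenced RNA of 25000 sorted cells per sample from C57Bl/6 mice of 6 to 8 weeks. In the liver, CRE- KCs came from Zeb2fl/fl mice, and Tim4+ KCs and Tim4- KCs from Clec4f-crexZeb2fl/fl mice (n = 6 each). In the lung, CRE- alveolar macs (AMs) came from Zeb2fl/fl mice, and CD11b- AMs and CD11b+ AMs from Itgax-crexZeb2fl/fl mice (n = 5 each). All groups therefore carry the floxed Zeb2 alleles, including the controls, and no group received a treatment. Clec4f drives Cre in KCs, and Itgax drives it in AMs and in other cells with CD11c. The study found that the CRE+ mice hold cells that kept an allele of Zeb2 beside cells that lost both, and how these divide among the sorted CRE+ groups was not tested here. A difference between the organs in CRE+ groups is also a difference between the Cre lines, and these cannot be told apart. Sex differs between the organs too, in controls as well. Replicates 5 and 6 of each KC group held the Y-linked transcript Ddx3y and no Xist, whereas all AM libraries carried Xist.

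Interleukin-1 alpha and interleukin-1 beta act through the receptor IL-1R1 and its partner chain IL-1RAcP, the product of Il1rap. The receptor antagonist encoded by Il1rn occupies IL-1R1 without a signal, and IL-1R2 binds the ligands but lacks a signalling domain, so it acts as a decoy. Interleukin-18 acts through the chains encoded by Il18r1 and Il18rap and is held by the soluble binding protein encoded by Il18bp. Il1rl1 encodes ST2, the receptor for interleukin-33. Tissue macs are a main source of interleukin-1 and interleukin-18, and the mature forms of interleukin-1 beta and interleukin-18 need proteolytic cleavage, which transcript counts do not show.

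A run of 4 members lies on chromosome 1 of GRCm38 (mm10), where Il1r2 (40074079 to 40125231), Il1r1 (40225080 to 40317257), Il1rl1 (40429570 to 40465415) and Il18r1 (40465552 to 40500854) are read from the plus strand within 426776 bp, with Il1rl2 between Il1r1 and Il1rl1 and Il18rap after Il18r1. Il1a (129299610 to 129309972) and Il1b (129364570 to 129371139) are adjacent on the minus strand of chromosome 2, which also carries Il1rn (24336853 to 24351494). Il18 lies on chromosome 9 (50554827 to 50581840), Il18bp on chromosome 7 (102014885 to 102018690) and Il1rap on chromosome 16 (26581704 to 26730117). Genes on the opposite strand overlap 6 of the 10 members, among them Il1bos for Il1b and Gm16894 for Il1r2. Whether counting used the strand is not given in the sources used here, so reads of such a pair could not be told apart.

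ZEB2 is known to bind the E-box CACCTG. Start windows of RefSeq genes, 250 bases before to 50 after a start, were searched for CACCTG on both strands (CAGGTG on the plus strand of the window). No start window of a member held both this motif and the NF-kB site given below. The windows of Il1r2, Il18r1 and Il1f9 are shown because these genes, the last of which encodes the family ligand interleukin-36 gamma (Il36g), are among the family genes with large gains in CRE+ groups described below. Capitals mark the CACCTG motif, and other E-box sequences, such as CACGTG, were not searched.
Il1r2, chr1:40085843-40086142, plus strand, GRCm38.p6: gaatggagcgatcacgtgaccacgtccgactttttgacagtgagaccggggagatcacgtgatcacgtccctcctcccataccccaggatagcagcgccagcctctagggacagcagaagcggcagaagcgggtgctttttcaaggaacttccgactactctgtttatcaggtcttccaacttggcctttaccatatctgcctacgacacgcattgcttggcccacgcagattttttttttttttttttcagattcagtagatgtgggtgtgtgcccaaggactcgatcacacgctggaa
Il18r1, chr1:40465756-40466055, plus strand, GRCm38.p6: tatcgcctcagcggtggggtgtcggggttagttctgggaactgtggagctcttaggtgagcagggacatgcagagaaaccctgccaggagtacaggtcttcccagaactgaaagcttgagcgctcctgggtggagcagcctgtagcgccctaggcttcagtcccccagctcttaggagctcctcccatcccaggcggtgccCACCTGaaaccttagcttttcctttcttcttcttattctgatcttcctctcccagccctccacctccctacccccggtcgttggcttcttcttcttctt
Il1f9, chr2:24186226-24186525, plus strand, GRCm38.p6: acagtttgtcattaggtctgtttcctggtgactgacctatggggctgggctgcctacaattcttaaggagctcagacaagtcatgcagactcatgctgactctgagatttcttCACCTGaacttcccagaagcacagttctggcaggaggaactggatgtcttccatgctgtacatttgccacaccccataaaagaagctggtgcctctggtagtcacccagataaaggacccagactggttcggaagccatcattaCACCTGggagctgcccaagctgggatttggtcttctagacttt
RefSeq and the gene coordinates above place some starts differently, and the windows follow RefSeq. The window of Il1r2 did not hold the CACCTG motif. One start window of Il18r1 held this motif at -49 from the start and another start of the same gene 1 at +11, while the window of Il1f9 held 2, at -137 and +8. Among the 10 members, Il18r1 was the one with the CACCTG motif in any start window, compared with 22.6% of all genes. The consensus site of NF-kB, a factor that induces Il1a, Il1b and Il1rn, was found in a window of 1 of 10 members, Il1r1, compared with 9.6% of all genes. The searches describe letters in these windows and say nothing of binding.

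Between 9837240 and 24332306 reads per library were counted on genes (median 20683608), and a single Tim4- KC library lay at the low end, so that 3 counts stand for at most 0.3 CPM, the read count scaled to the library size. The labelled cell types carried their markers. The KC gene Clec4f had 10900 ± 606 CPM (SD, n = 6) in CRE- KCs and 0.274 ± 0.132 CPM (SD, n = 5) in CRE- AMs, and the AM gene Car4 had 536 ± 98.6 CPM (SD, n = 5) in CRE- AMs and no count in CRE- KCs. Timd4, which encodes Tim4, averaged 708, 381 and 2.8 CPM in CRE-, Tim4+ and Tim4- KCs, and Itgam, which encodes CD11b, averaged 1.92, 17.8 and 265 CPM in CRE-, CD11b- and CD11b+ AMs. Zeb2 averaged 282, 174 and 168 CPM in CRE-, Tim4+ and Tim4- KCs, and 195, 105 and 62.5 CPM in CRE-, CD11b- and CD11b+ AMs; the floxed allele leaves a truncated transcript, so these counts check the deletion in part. Groups were compared with edgeR (quasi-likelihood test, p-values adjusted by Benjamini-Hochberg over all genes tested). A gene was called where the adjusted p was below 0.05 and the log2 fold change was above 1 in size. A change of transcripts in sorted bulk cells can reflect more cells with the transcript or more RNA per cell, which cannot be told apart.

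**Figure D1:**
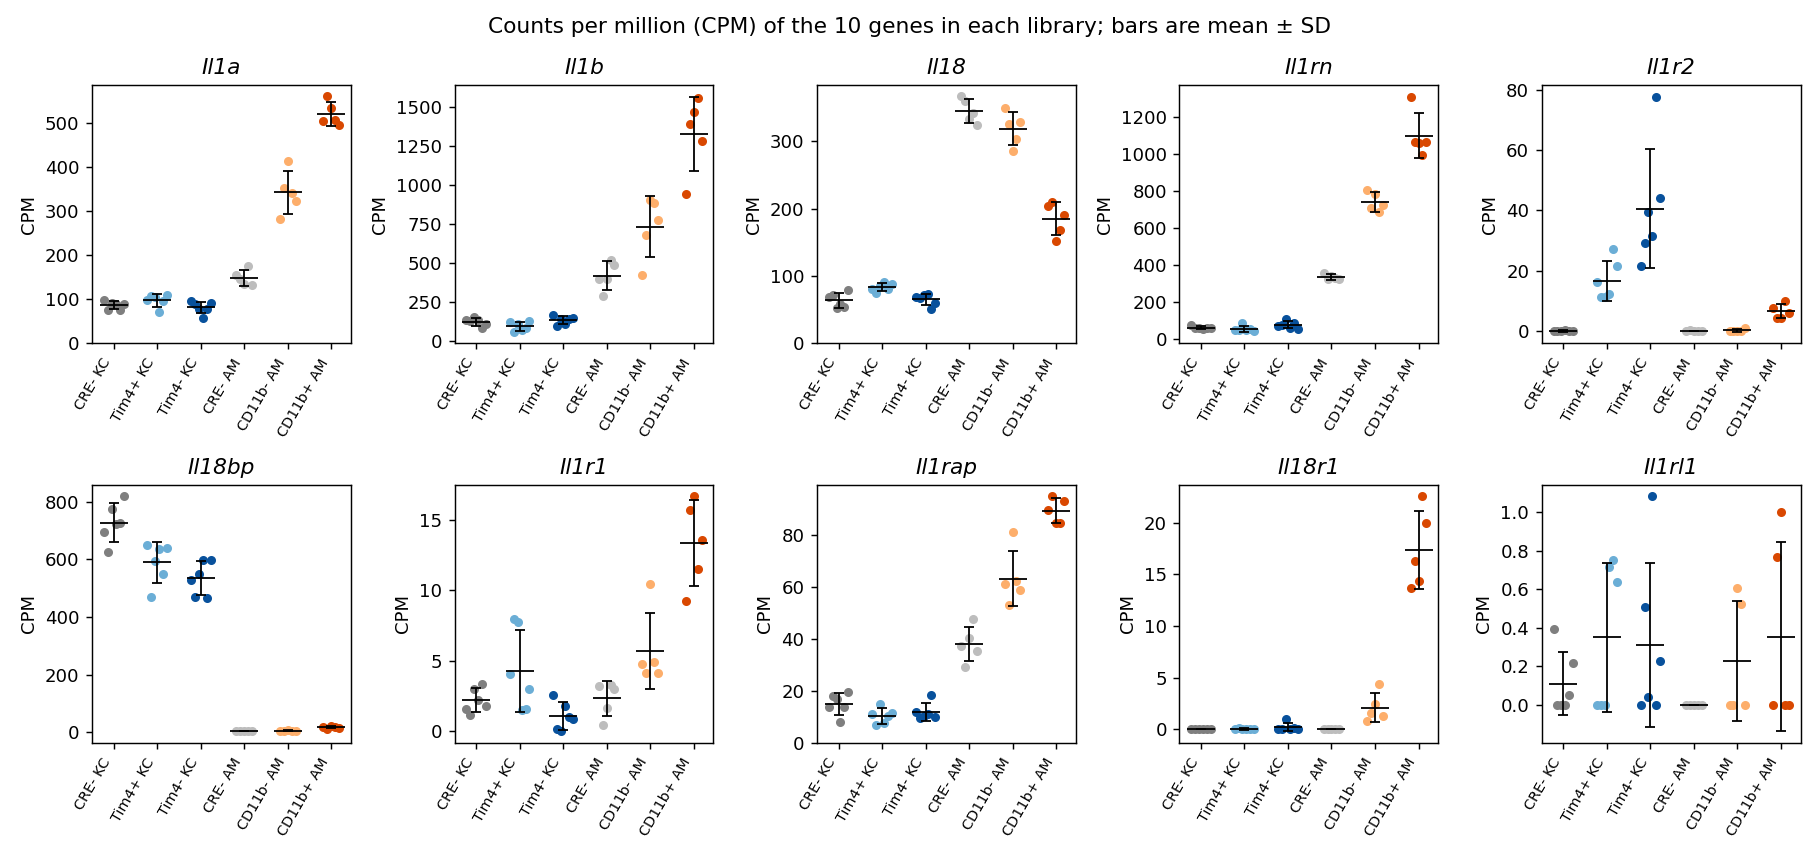
Level of each of the 10 genes in every library, in CPM on a linear axis that differs between genes; each point is 1 library, and black bars give the mean ± SD of the group (n = 6 for KCs, n = 5 for AMs). Il18bp is high in the 3 KC groups, while Il1a, Il1b, Il1rn, Il1rap and Il18 are highest in AMs, and Il1r2 is near 0 in both control groups.

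Control KCs and AMs carried different arms of the interleukin-18 system. Il18bp was far higher in CRE- KCs, where it ranged from 624.5 to 818.7 CPM with a median of 725 CPM, than in CRE- AMs, where the 5 libraries had 3.5, 3.77, 5.5, 5.2 and 3.43 CPM. The groups did not overlap, and the log2 fold change was 7.44 (SE 0.147, edgeR adjusted p = 2.25e-14). The ligand Il18 went the other way. It ranged from 51.9 to 79.9 CPM (median 64.3) in CRE- KCs and was 367, 359, 332, 342 and 324 CPM in the CRE- AM libraries, a log2 fold change of -2.40 in KCs (SE 0.105, edgeR adjusted p = 7.04e-11).

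Ligands of IL-1R1 and their antagonist were lower in control KCs as well. Il1b had 126 ± 25.3 CPM (SD, n = 6) in CRE- KCs and 419 ± 92.3 CPM (SD, n = 5) in CRE- AMs, a log2 fold change of -1.71 (SE 0.161, edgeR adjusted p = 3.27e-07). Il1rn had 61.5 ± 6.96 CPM (SD, n = 6) in CRE- KCs and 335.5 ± 15 CPM (SD, n = 5) in CRE- AMs, a log2 fold change of -2.42 (SE 0.0782, edgeR adjusted p = 2.65e-12). The accessory chain Il1rap was lower too, at 15.2 ± 4.16 CPM (SD, n = 6) compared with 38.1 ± 6.71 CPM (SD, n = 5), a log2 fold change of -1.30 (SE 0.193, edgeR adjusted p = 3.64e-05). Il1a had 87.2 ± 9.19 CPM (SD, n = 6) and 149 ± 17.6 CPM (SD, n = 5) without overlap, but its log2 difference of -0.75 was under the fold limit (edgeR adjusted p = 4.97e-06). For Il1r1 no difference was found (log2 difference -0.06, SE 0.453, edgeR adjusted p = 0.917). Of the 7 members that passed the filter on low counts, 1 was called higher in KCs and 4 lower, where 20.9% and 12.4% of all genes tested were called. Il1r2, Il18r1 and Il1rl1 did not pass: they had 10, 0 and 14 counts over the 6 CRE- KC libraries and 11, 1 and 0 over the 5 CRE- AM libraries.

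Scaled by exon length, the order of the levels differed between the control macs. In CRE- KCs, Il18bp led at 240.4 CPM per kb, followed by Il1b at 66.0, Il18 at 62.3, Il1a at 44.2 and Il1rn at 11.1 CPM per kb; Il1b and Il18 were within 1 SD of each other. In CRE- AMs, Il18 led at 334 CPM per kb, followed by Il1b at 219.9, Il1a at 75.6 and Il1rn at 60.6 CPM per kb, and Il18bp stood at 1.41 CPM per kb. The receptor chains were low in both: Il1rap had 1.34 and 3.36 CPM per kb and Il1r1 0.346 and 0.368 CPM per kb in CRE- KCs and CRE- AMs.

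In Kupffer cells, the decoy Il1r2 was the member with a call. Of the 6 CRE- KC libraries, 5 had no count of Il1r2, and the remaining library had 10 counts (0.522 CPM). Tim4+ KCs ranged from 11.3 to 27.4 CPM with a median of 14.3 CPM, and Tim4- KCs from 21.7 to 77.7 CPM with a median of 35.4 CPM. Every CRE+ library lay above every CRE- library, while Tim4+ and Tim4- KCs overlapped. The Tim4+ gain was a log2 fold change of 7.60 (SE 0.617, edgeR adjusted p = 4.49e-08), in a comparison that shares its CRE- libraries with the one that chose the gene. Since the reference holds 10 counts in all, the size is poorly fixed: the summed counts gave a ratio of 213 (95% counting interval 116 to 445) for Tim4+ KCs and of 536 (291 to 1120) for Tim4- KCs, and these intervals cover counting error only. Without replicate 4 of each group, which holds the counts of the reference, the fitted value for Tim4+ KCs was 11.52. The CRE- KCs then had no count of Il1r2, so that the call remained is no check of it. The fitted difference of Tim4- from CRE- KCs was 8.88 and that from Tim4+ KCs 1.28 on the log2 scale, given without a test. The latter was 0.99, inside the fold limit, without Tim4- replicate 5, the library with 77.7 CPM. Per kb of exon, Il1r2 reached 21.3 CPM in Tim4- KCs, above Il1rn at 13.9 CPM, whereas Il1rn was the higher of the pair in CRE- KCs. Without the scaling, Il1rn was the higher in Tim4- KCs too, at 76.8 compared with 40.6 CPM, so this order depends on the exon lengths used. Il1r2 was called alone among the 8 members that passed the filter in Tim4+ KCs, where 1.94% of all genes tested were called higher and 0.376% lower; it passed through the CRE+ libraries. Some monocyte marker genes followed the same order of groups. The 9 listed genes summed to 185 to 320 CPM in CRE- KCs, 173 to 490 CPM in Tim4+ KCs and 377 to 877 CPM in Tim4- KCs, with Vcan at 0 in both CRE+ groups. The chemokine receptor gene Ccr2 had medians of 5.03, 23.3 and 116 CPM and Cx3cr1 of 6.37, 37 and 89.9 CPM in CRE-, Tim4+ and Tim4- KCs. Plac8, Fn1 and F13a1 did not follow this order. Their medians in the same groups were 182, 110 and 229 CPM for Plac8, 14, 59.6 and 9.13 CPM for Fn1, and 5.06, 6.06 and 2.19 CPM for F13a1. Ly6c2 stayed at or below 1.74 CPM. The part of the listed genes in the Il1r2 levels was not tested.

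The ligands were close to control levels in both CRE+ KC groups. In single cells assigned as lacking Zeb2, the study reported more Il1a, Il1b and Ripk3, a necroptosis kinase gene, in both KCs and AMs. The bulk groups were sorted by Tim4 and can hold cells that kept an allele of Zeb2. The sets of cells are therefore unlike. Il1a had 87.2 ± 9.19, 98.3 ± 14.7 and 81.8 ± 13.3 CPM (SD, n = 6) in CRE-, Tim4+ and Tim4- KCs, with a log2 difference of 0.15 in Tim4+ KCs (SE 0.118, edgeR adjusted p = 0.574). Il1b had 126 ± 25.3, 96.1 ± 28.5 and 136 ± 25.8 CPM, with a log2 difference of -0.41 in Tim4+ KCs (SE 0.181, edgeR adjusted p = 0.243). Il1rn had 61.5 ± 6.96, 56 ± 15.8 and 76.8 ± 18.7 CPM, with a log2 difference of -0.16 (SE 0.158, edgeR adjusted p = 0.688). All 3 groups overlapped for each of these genes. Il18 had 64.3 ± 11, 83.5 ± 6.12 and 65.3 ± 8.59 CPM, and its log2 difference of 0.36 in Tim4+ KCs missed the threshold (SE 0.109, edgeR adjusted p = 0.0547). Il18bp had 728 ± 66.8, 589.8 ± 69.9 and 535.5 ± 58.9 CPM, a log2 difference of -0.32 in Tim4+ KCs that passed the p threshold but not the fold limit (SE 0.0907, edgeR adjusted p = 0.0366). It remained the most abundant member per kb in every KC group.

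Receptor chains other than Il1r2 were rare in KCs. Il1rap had 15.2 ± 4.16, 10.5 ± 2.93 and 12.1 ± 3.36 CPM in CRE-, Tim4+ and Tim4- KCs, with a log2 difference of -0.56 in Tim4+ KCs (SE 0.222, edgeR adjusted p = 0.176). Il1r1, the signalling receptor, ranged from 1.18 to 3.38 CPM (median 2.01) in CRE- KCs, from 1.52 to 7.95 CPM (median 3.52) in Tim4+ KCs and from 0 to 2.6 CPM (median 0.978) in Tim4- KCs. The 3 groups overlapped, and the log2 difference in Tim4+ KCs was 0.94 (SE 0.645, edgeR adjusted p = 0.518). The summed endothelial marker genes, like the median of Il1r1, were lowest in Tim4- KCs, while their ranges in CRE- and Tim4+ KCs overlapped. The summed level of all 8 listed liver endothelial genes was 595 to 1940 CPM in CRE- KCs, 1130 to 3300 CPM in Tim4+ KCs and 373 to 532 CPM in Tim4- KCs, none of them at 0, and their part in the Il1r1 levels was not tested. Il18r1 had no count in CRE- KCs, 4 counts over the Tim4+ KCs and 26 over the Tim4- KCs, 24 of them in a single library. Il1rl1 stayed at or below 20 counts (1.08 CPM) in each KC library. Past an absolute log2 fold change of 1, and without a test, were Il1r2 (higher) and Il1r1 (lower) in Tim4- compared with CRE- KCs, where 4.89% of all genes tested were past the fold upward and 8.87% downward, and the same 2 genes in Tim4- compared with Tim4+ KCs, where 1.88% and 8.88% were. The value of Il1r1 in Tim4- compared with CRE- KCs, -1.09, was -1.60 without replicate 1 and -0.70, inside the fold limit, without replicate 3.

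**Figure D2:**
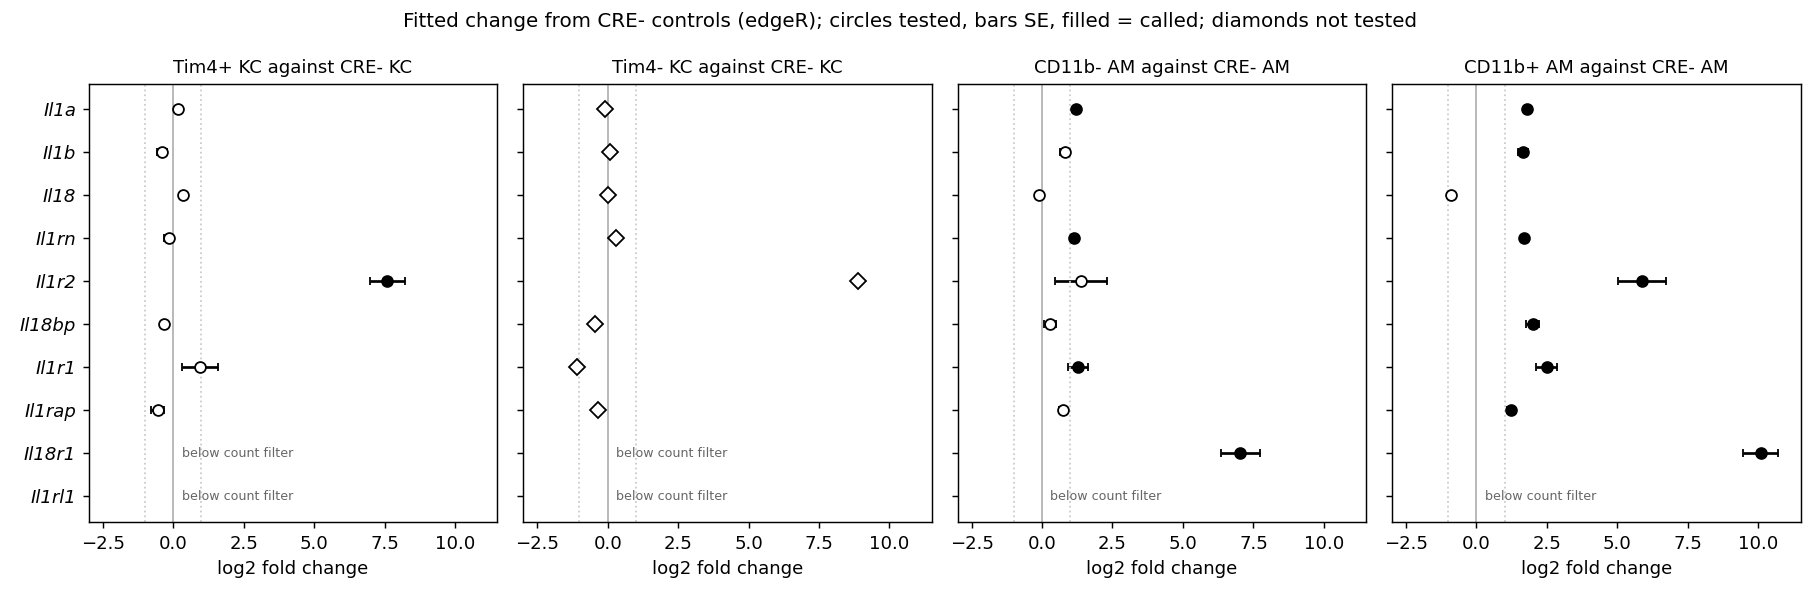
Fitted log2 fold change of each gene from the CRE- control of its tissue; circles are tested values with SE bars, filled where the gene was called, diamonds are values given without a test, and dotted lines mark a log2 fold change of 1. Il1r2 is past the upper line in both CRE+ KC groups and Il1r1 just past the lower line in Tim4- KCs, whereas 4 genes in CD11b- AMs and 8 in CD11b+ AMs were called higher.

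In alveolar macs, by contrast with KCs, the ligands and their antagonist rose. Il1a was 155, 147, 134, 176 and 133 CPM in the CRE- AM libraries, 282, 353, 415, 342 and 323 CPM in CD11b- AMs, and 504, 561, 535, 506 and 495 CPM in CD11b+ AMs. No library of these groups overlapped with another group. The log2 fold change was 1.202 in CD11b- AMs (SE 0.0913, edgeR adjusted p = 8.85e-09) and 1.79 in CD11b+ AMs (SE 0.0926, edgeR adjusted p = 5.41e-12). Il1b was 401, 287, 396, 523 and 490 CPM in CRE- AMs, 422, 677, 903, 883 and 778 CPM in CD11b- AMs, and 939, 1388, 1467, 1554 and 1279 CPM in CD11b+ AMs. Its CD11b+ libraries lay above all others, while CD11b- and CRE- AMs overlapped through 1 CD11b- library. Il1b rose in CD11b+ AMs by a log2 fold change of 1.65 (SE 0.183, edgeR adjusted p = 3.72e-07), and its difference of 0.81 in CD11b- AMs was under the fold limit (SE 0.18, edgeR adjusted p = 0.00238).

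Il18 did not share this rise. Its libraries held 367, 359, 332, 342 and 324 CPM in CRE- AMs, 350, 326, 286, 303 and 328 CPM in CD11b- AMs, and 204, 209.6, 152, 168 and 189.8 CPM in CD11b+ AMs. Every CD11b+ library lay below every other AM library. The log2 difference from CRE- AMs was -0.91 (SE 0.0831, edgeR adjusted p = 2.19e-08), just inside the fold limit, and in CD11b- AMs it was -0.11 (SE 0.0822, edgeR adjusted p = 0.339).

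The inhibitors rose too. Il1rn was 359.8, 323, 339.6, 329.5 and 325 CPM in CRE- AMs, 806, 706, 782, 685 and 724 CPM in CD11b- AMs, and 1309, 1066, 1058, 996 and 1067 CPM in CD11b+ AMs. The 3 groups did not overlap, and the log2 fold changes were 1.14 (SE 0.0706, edgeR adjusted p = 4.88e-10) and 1.70 (SE 0.0716, edgeR adjusted p = 2.53e-13). Il18bp was 3.4, 4.25, 7.77, 4.69 and 5.91 CPM in CD11b- AMs, overlapping with the controls (log2 difference 0.28, SE 0.226, edgeR adjusted p = 0.401), and 18.1, 13, 22.4, 17.4 and 14.9 CPM in CD11b+ AMs, above all other AM libraries. It rose in CD11b+ AMs by a log2 fold change of 1.99 (SE 0.227, edgeR adjusted p = 5.26e-07). Its mean of 17.2 CPM there was still far below the 728 CPM of CRE- KCs. The decoy Il1r2 had 0, 7, 4, 0 and 0 counts in CRE- AMs, 3, 2, 2, 1 and 21 counts in CD11b- AMs, and 127, 89, 87, 189 and 105 counts in CD11b+ AMs. Only the last group stood clear of the others, at 4.55 to 10 CPM, with a log2 fold change from CRE- AMs of 5.87 (SE 0.852, edgeR adjusted p = 1.15e-05) and a ratio of summed counts of 62.5 (95% counting interval 34.7 to 126). Il1r2 passed the filter through the CD11b+ libraries in which it was high, so this p-value adds little to the counts. Without replicate 2 of each group, the control of which holds 7 counts, the fitted value was 7.04. In CD11b- AMs the log2 difference was 1.38 (SE 0.912, edgeR adjusted p = 0.297).

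Among the receptors, Il18r1 had the largest ratio to the controls. It had 1 count over the 5 CRE- AM libraries, 0.812, 1.55, 2.48, 4.34 and 1.24 CPM in CD11b- AMs, and 13.7, 16.3, 14.3, 22.6 and 20.03 CPM in CD11b+ AMs. The 3 groups did not overlap. Ratios of the summed counts to the single control count were 211 (95% counting interval 37.4 to 8360) and 1820 (327 to 72100), and the edgeR adjusted p-values were 3.76e-07 and 7.23e-11. Il18r1 passed the filter through the CRE+ libraries in which it was high, so these p-values add little to the counts. Without replicate 1, which holds the control count, the fitted values grew from 7.04 and 10.09 to 8.58 and 11.51 on the log2 scale. The controls then had no count, so that both calls remained is no check of them. Without replicate 4, the highest in both CRE+ groups, the fitted value in CD11b- AMs was 6.40. CD11b+ exceeded CD11b- AMs by a log2 fold change of 3.06 (SE 0.346, edgeR adjusted p = 1.07e-06). Il18rap, whose product pairs with that of Il18r1, rose in the same groups, from 0.766 ± 1 CPM in CRE- AMs to 5.15 ± 1.65 CPM in CD11b- AMs and 23.9 ± 5.7 CPM in CD11b+ AMs (SD, n = 5), with log2 fold changes of 2.77 (SE 0.577, edgeR adjusted p = 0.00133) and 4.97 (SE 0.588, edgeR adjusted p = 8.39e-07).

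Il1rap was 37.5, 29.4, 40.6, 47.6 and 35.6 CPM in CRE- AMs, 61.1, 53.3, 81.2, 62.2 and 58.9 CPM in CD11b- AMs, and 89.74, 95.03, 84.88, 84.84 and 93.01 CPM in CD11b+ AMs. The groups did not overlap, the change in CD11b+ AMs was called at a log2 fold change of 1.22 (SE 0.117, edgeR adjusted p = 4.61e-08), and that in CD11b- AMs, 0.73, was under the fold limit (SE 0.116, edgeR adjusted p = 0.000101). Il1r1 was 3.23, 0.489, 1.66, 3.32 and 3.02 CPM in CRE- AMs, 4.77, 4.13, 10.4, 4.92 and 4.17 CPM in CD11b- AMs, and 9.21, 15.69, 16.64, 11.47 and 13.55 CPM in CD11b+ AMs. It was called in CD11b+ AMs (log2 fold change 2.49, SE 0.374, edgeR adjusted p = 1.72e-05) and in CD11b- AMs (1.28, SE 0.369, edgeR adjusted p = 0.0146). The latter call rested on 1 library: without CD11b- replicate 3, which held 10.4 CPM, the log2 difference was 0.94 (edgeR adjusted p = 0.0627). Il1rl1 had counts in 2 of 5 CD11b- and 2 of 5 CD11b+ libraries, at most 19 each, and none in CRE- AMs, and it did not pass the filter.

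In all, 4 of the 9 members that passed the filter were called higher and 0 lower in CD11b- AMs (edgeR; 6 were higher and 0 lower at an unadjusted p under 0.05, and limma-voom and DESeq2 called the same numbers), where 3.98% of all genes tested were called higher and 2.51% lower. In CD11b+ AMs 8 of 9 were called higher, where 9.57% and 5.68% of all genes were called, and Il18 was the exception. CD11b+ exceeded CD11b- AMs in Il1r1 (log2 fold change 1.21), Il1r2 (4.49), Il18bp (1.71) and Il18r1, that is 4 of 9 members (the other 5 had an edgeR adjusted p under 0.05 and were inside the fold limit), where 6.85% of all genes were called higher and 3.3% lower. The value of Il1r2 was 6.02 without replicate 5, whose CD11b- library holds 21 of the 29 counts of that group. For Il1r1 the call was lost without replicate 5 (log2 difference 1.11, edgeR adjusted p = 0.0525). Il1r2 and Il18r1 passed the filter through the CRE+ libraries in which they were high, so their calls add little to these counts.

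Neutrophil marker genes moved with the members in AMs. Of 11 listed genes, 10 were in the files, and their summed level was 92 to 118 CPM in CRE- AMs, 1030 to 2650 CPM in CD11b- AMs and 8390 to 10800 CPM in CD11b+ AMs, without overlap. S100a8 and S100a9 made up most of it, with medians of 4380 and 3610 CPM in CD11b+ AMs, followed by the chemokine receptor gene Cxcr2 at 579 CPM. The granule genes Ngp and Camp had no count in CD11b- AMs and medians of 0.715 and 0.157 CPM in CD11b+ AMs, where Ltf had 18.1 CPM. The T, NK and innate lymphoid list, 11 of 12 genes in the files, rose from 291 to 329 CPM in CRE- AMs to 375 to 419 and 410 to 446 CPM. Cd2 made up 305, 385 and 404 CPM of it at the median. Il7r had medians of 0.489, 0.187 and 5.49 CPM and Gata3 of 0, 0.761 and 3.57 CPM in CRE-, CD11b- and CD11b+ AMs. For both genes, every CD11b+ library lay above all other AM libraries. The other listed genes stayed at or below 3.36 CPM in every AM library, among them Cd3e at or below 2.71 CPM and Ncr1 at or below 0.849 CPM. The 9 monocyte genes summed to 17500 to 27900, 19800 to 29100 and 37700 to 52600 CPM, nearly all of it Chil3, which AMs express themselves. Of the others, Ly6c2 had medians of 0.0924, 1.26 and 128 CPM and F13a1 of 0, 0 and 36.5 CPM in CRE-, CD11b- and CD11b+ AMs, Fn1 was highest in CRE- AMs, and Vcan was at 0 in both CRE+ groups. Whether these transcripts came from other cells or from the AMs was not tested, nor was their part in the member levels.

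The change in Tim4+ KCs and that in CD11b- AMs were compared through an interaction term in 1 fit of 22 libraries. Tim4+ and CD11b- are the gates that match the CRE- controls for Tim4 and CD11b, although both CRE+ groups differed from their controls in Timd4 or Itgam counts as given above. The change in Tim4+ KCs was lower than that in CD11b- AMs by 1.06 for Il1a, 1.22 for Il1b, 1.31 for Il1rn and 1.29 for Il1rap on the log2 scale, and higher by 6.20 for Il1r2 (edgeR adjusted p = 5.93e-05, 0.00814, 1.17e-05, 0.00305 and 0.0129). Of the 10 members, all of which passed the filter in this fit, 1 was thus called higher and 4 lower, where 2.92% and 2.03% of all genes tested were called. Il1r2 was chosen for its gain over the same CRE- KC libraries and passed the filter through Tim4+ KCs, so its call adds nothing to this count. It was lost when CRE- AM replicate 2 or 3, the control libraries with counts of the gene, was left out (edgeR adjusted p = 0.166 and 0.0538). The call of Il1b was lost without replicate 3 of each group (-1.08, edgeR adjusted p = 0.0593). That of Il1a was lost without Tim4+ KC replicate 4 or CD11b- AM replicate 3, at -0.96 in both cases, since its size then fell under the fold limit. The calls of Il1rn and Il1rap held whichever replicate or library was left out. The difference covers tissue, Cre line and the unlike mix of sexes together.

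Ratios per kb of exon put ligands and inhibitors on a common scale. Il1rn relative to the sum of Il1a and Il1b was similar among the AM groups, with medians of 0.223, 0.229 and 0.19 in CRE-, CD11b- and CD11b+ AMs and overlapping ranges. In KCs the medians were 0.106, 0.106 and 0.13. Il18bp relative to Il18 was 3.83, 2.38 and 2.71 at the median in CRE-, Tim4+ and Tim4- KCs, and 0.00361, 0.00527 and 0.0301 in CRE-, CD11b- and CD11b+ AMs. The binding protein transcript thus outnumbered the ligand transcript in each KC library and in no AM library. Il1r2 relative to Il1r1 was 18.7 (range 4.74 to 57.3) in Tim4+ KCs and 1.51 (0.915 to 2.92) in CD11b+ AMs, and 0 at the median in both control groups.

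**Figure D3:**
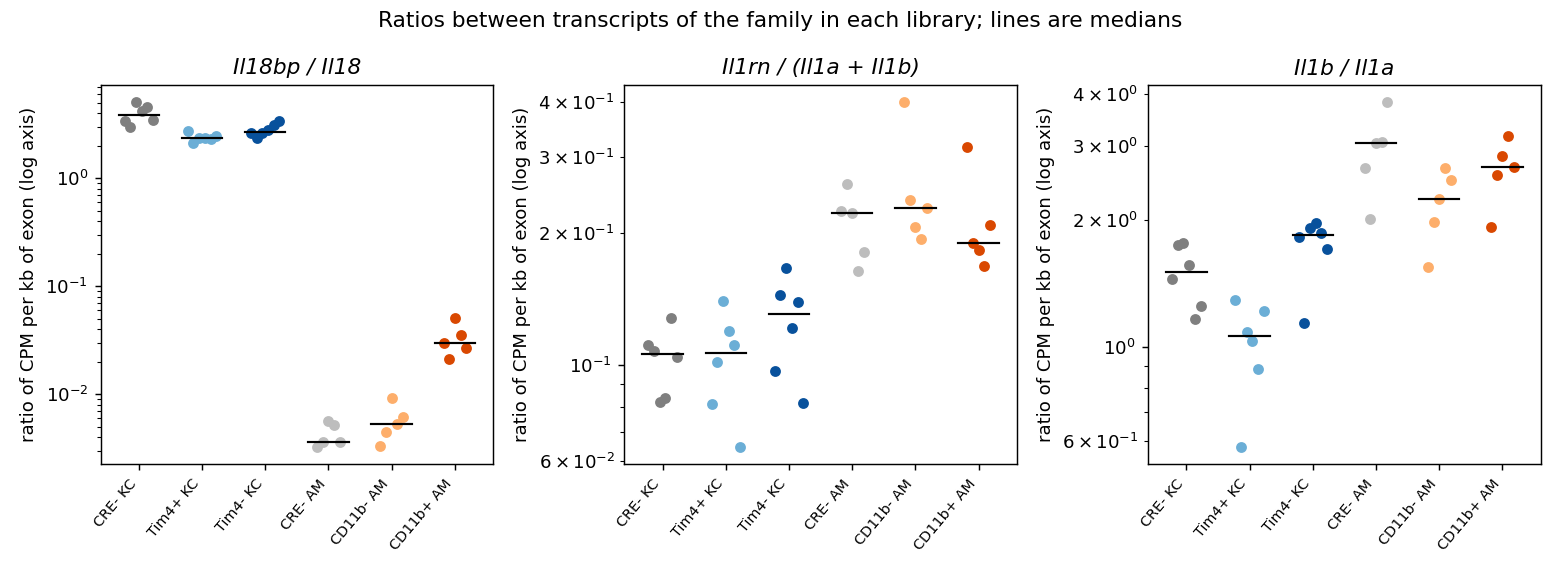
Ratios between transcripts per kb of exon in each library, on log axes; points are libraries and lines are medians. Il18bp over Il18 lies between 2.15 and 5.09 in KCs and at or below 0.0503 in AMs, while Il1rn over the sum of Il1a and Il1b keeps overlapping ranges among the AM groups.

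Other genes of the family were read from a list of 11, of which 4 passed the filter in each tissue. Il36g, listed in the files as Il1f9, was called higher in each tested comparison of a CRE+ group with its control. It had 0.852 ± 0.232 CPM in CRE- KCs, 10.7 ± 4.47 CPM in Tim4+ KCs and 21.1 ± 7.53 CPM in Tim4- KCs (SD, n = 6), a log2 fold change of 3.63 in Tim4+ KCs (SE 0.303, edgeR adjusted p = 6.86e-08). In AMs it rose from 10.7 ± 1.04 CPM to 83.5 ± 22.4 CPM in CD11b- AMs and 342 ± 30.2 CPM in CD11b+ AMs (SD, n = 5), by 2.97 and 4.99 on the log2 scale (SE 0.154 and 0.164, edgeR adjusted p = 3.60e-11 and 7.83e-15). Its receptor gene Il1rl2 rose in CD11b+ AMs from 24.8 ± 3.21 to 93.7 ± 10.1 CPM (SD, n = 5), a log2 fold change of 1.90 (SE 0.0983, edgeR adjusted p = 5.41e-12), and in the interaction its change was lower in Tim4+ KCs by 1.37 (edgeR adjusted p = 1.70e-05). Sigirr, a single-domain inhibitory receptor, rose in CD11b+ AMs as well (1.36, SE 0.275, edgeR adjusted p = 0.000429). The 4 genes of the list that passed the filter in AMs, Il36g, Il1rl2, Il18rap and Sigirr, were called higher in CD11b+ AMs, where 9.57% of all genes were. In CD11b- AMs 2 of 4 were called higher, where 3.98% of all genes were, and in Tim4+ KCs 1 of 4, where 1.94% were. Il18rap passed through the CRE+ libraries, since 2 of the 5 CRE- AM libraries had no count of it, and adds little to these counts.

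**Figure D4:**
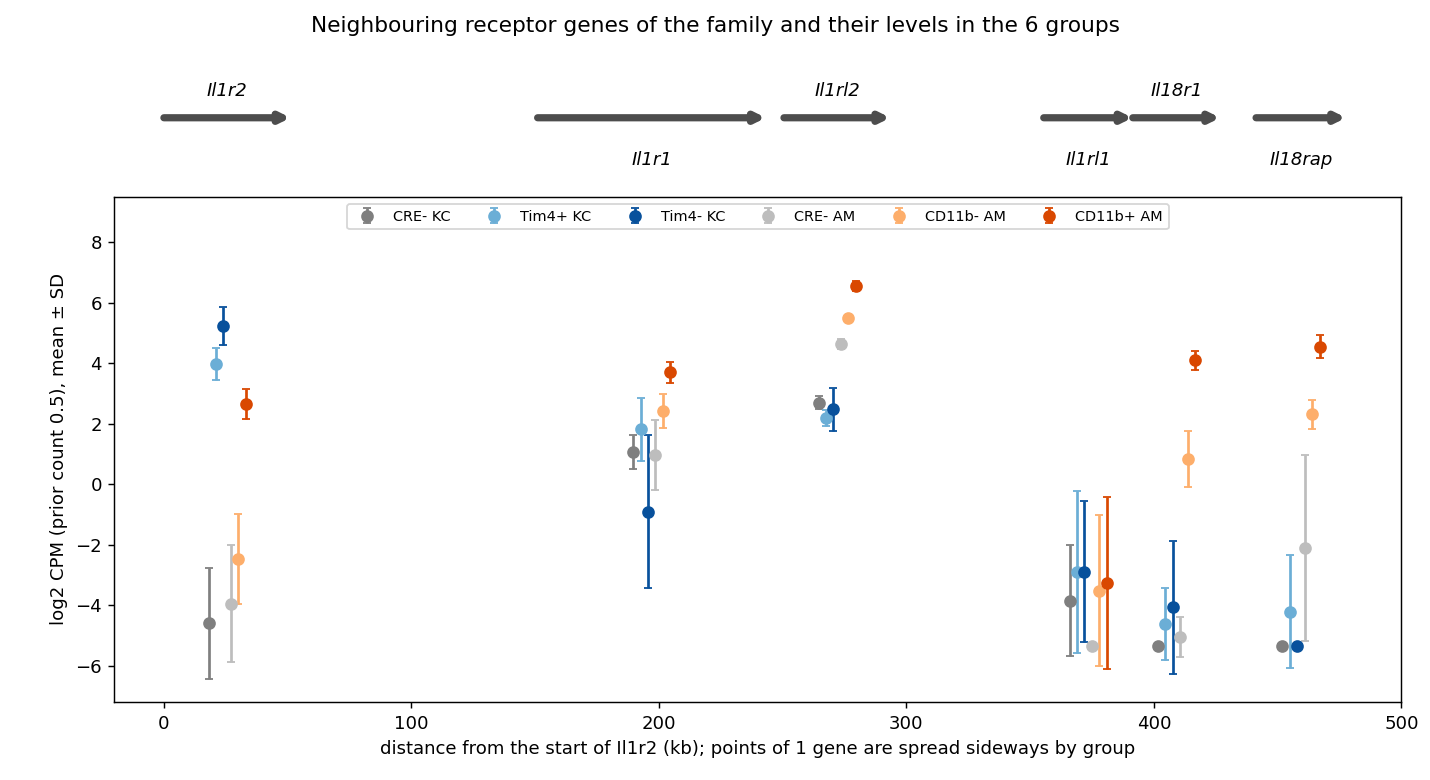
The 6 neighbouring receptor genes of the family, drawn to scale by distance from the start of Il1r2 in kb (arrows point along transcription), above their mean log2 CPM ± SD in the 6 groups (n = 6 for KCs, n = 5 for AMs). Il1r2 is high in Tim4+ KCs, Tim4- KCs and CD11b+ AMs, while Il18r1 and Il18rap are high in CD11b+ AMs and near the floor in KCs, so neighbouring genes differ in the groups that carry them.

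Genes for maturation and release of the ligands, and for signalling below the receptors, were read from 2 further lists. Of 18 maturation genes, 0 were called in Tim4+ KCs in either direction by edgeR, limma-voom or DESeq2. At an unadjusted edgeR p under 0.05, 2 were higher and 1 lower. Of all genes, 1.94% were called higher there and 0.376% lower. Ripk3 passed the p threshold in Tim4+ KCs but not the fold limit (log2 difference 0.42, SE 0.118, edgeR adjusted p = 0.0375). In CD11b- AMs 1 of the 17 that passed was called lower, where 2.51% of all genes were, the inflammasome sensor gene Nlrp1a (-2.23, SE 0.373, edgeR adjusted p = 0.000168). In CD11b+ AMs the necroptosis kinase gene Ripk3 rose from 14.2 ± 2.89 to 79.8 ± 12.3 CPM (SD, n = 5; log2 fold change 2.48, SE 0.213, edgeR adjusted p = 9.31e-09), as did the inflammatory caspase gene Casp4 (1.08, SE 0.185, edgeR adjusted p = 7.94e-05), 2 of 17 genes, where 9.57% of all genes were called higher. Mlkl, which acts below Ripk3, was lower in CD11b+ than in CD11b- AMs (-1.26, SE 0.276, edgeR adjusted p = 0.00136). Of 15 signalling genes, 1 was called higher in CD11b+ AMs, against the same 9.57%, the ubiquitin ligase gene Peli1 (1.09, SE 0.098, edgeR adjusted p = 1.97e-08). Between the control macs, Ninj1, a mediator of membrane rupture, was 769 ± 67.2 CPM in CRE- KCs (SD, n = 6) and 15.2 ± 1.3 CPM in CRE- AMs (SD, n = 5), with a log2 fold change of 5.69 (SE 0.0965, edgeR adjusted p = 6.24e-15), and Mefv, which encodes pyrin, had 12.9 ± 4.77 CPM in CRE- KCs and no count in CRE- AMs. Ripk3 and Mlkl were higher in CRE- KCs as well (2.88 and 2.62), and Nlrp3 and Nlrp1b lower (-1.02 and -1.60), so 4 of 18 maturation genes were called higher and 2 lower, shares near the 20.9% and 12.4% of all genes.

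Over the 33 libraries, genes whose log2 CPM followed Il1r2 closely, of 13294, included Pglyrp1, an antibacterial peptidoglycan-binding protein gene (Pearson r = 0.934), Ms4a1, which encodes CD20 (0.918), Pdlim2 (0.897) and Mafg (0.891). The libraries of a group share their state, so r mainly reads differences between groups. Pglyrp1 had 0.249 ± 0.14, 23.8 ± 10.9 and 40.4 ± 16.4 CPM in CRE-, Tim4+ and Tim4- KCs (SD, n = 6), and 0.219 ± 0.203, 0.772 ± 0.476 and 5.54 ± 2.75 CPM in CRE-, CD11b- and CD11b+ AMs (SD, n = 5). Ms4a1 is best known from B cells, but the study also reported CD20, together with SiglecF, on KCs that had lost Zeb2. Ms4a1 averaged 5, 80.8 and 143 CPM in CRE-, Tim4+ and Tim4- KCs. Siglecf had medians of 4.89, 168 and 264 CPM in the same groups. The 6 listed B cell genes summed to 50 to 93, 23.1 to 54.1 and 50.3 to 126 CPM there. Among them, Pax5 stayed at or below 0.403 CPM.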

How the data were processed

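RNA of sorted KCs and AMs was sequenced by the authors, who trimmed reads with Trimmomatic 0.35, mapped them to mm10 with TopHat2 2.1.0 and counted them with HTSeq-count, whose version and strand setting are not given in the sources used here. The deposited files hold raw read counts per gene symbol for each of 33 libraries, with 24421 genes and 5 tally rows (5.88% to 10.1% of the counts), which were left out. FastQC 0.11.4 and SAMtools 0.1.18 are named in the submitters' notes. Groups and replicate numbers came from the labels. The labels do not say that libraries of a group came from separate mice, so p-values measure the spread between these libraries. No libraries agreed within sampling noise.

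The tests were run with edgeR 4.0.16 under R 4.3.3 (TMM factors, filterByExpr, quasi-likelihood test, Benjamini-Hochberg adjustment), in 1 fit of 18 KC libraries, 1 of 15 AM libraries, 1 of 11 control libraries and 1 of 22 for the interaction. SE is the absolute log2 fold change over the square root of F. CPM used TMM-scaled library sizes, and log2 CPM a prior count of 0.5. Positions and exon lengths came from GENCODE M21 (95.75% of symbols matched), start windows from RefSeq. The exon length of a gene is the union of all its annotated exons, which can exceed the length of the transcript expressed. Alternatives were RLE and upper-quartile factors, no filter, at least 10 counts in every sample, limma-voom 3.58.1, which the study's methods name, DESeq2 1.42.0, no fold limit, fewer or more groups per fit, a covariate for Ddx3y, a replicate block, and each replicate or library left out. The code was tested on simulated counts. The members, gene lists and tests were chosen with earlier results of these data known. Named were all 10 members, at most 4 called genes of each other list and comparison by size of change, the genes most like Il1r2 (1 item under this rule is not reported here), and Zeb2, Timd4, Itgam, Clec4f and Car4 as checks of the labels. Cell marker genes and genes that share a pattern were named as examples after their values were seen.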

Additional observations from a re-analysis of the deposited data

Results flagged for a closer look

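A total of 6 single libraries stood apart from the rest of their group, by Dixon's test of the gap to the nearest library over the range, among 47 sets of 1 gene in 1 group with a mean of at least 1 CPM; chance alone gives about 1 in 20 sets. Il1r1 in CD11b- AM replicate 3 was 10.4 CPM, with the others from 4.13 to 4.92 CPM, and the call of Il1r1 in CD11b- AMs was lost without it. Il1a in Tim4+ KC replicate 4 was 70.3 CPM, with the others from 96.7 to 109 CPM. Il1rn was 74.9 CPM in CRE- KC replicate 1 (others 54.8 to 62.2 CPM), 87.1 CPM in Tim4+ KC replicate 3 (others 43.9 to 56.8 CPM) and 1309 CPM in CD11b+ AM replicate 1 (others 996 to 1067 CPM). Il1rap in Tim4- KC replicate 5 was 18.7 CPM, with the others from 9.87 to 12.1 CPM.

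The interaction term found that the change in Tim4+ KCs differed from that in CD11b- AMs for 5 members (edgeR, adjusted p from 1.17e-05 to 0.0129). The log2 difference was -1.06 for Il1a (SE 0.155), -1.22 for Il1b (SE 0.295), -1.31 for Il1rn (SE 0.168), -1.29 for Il1rap (SE 0.277) and 6.20 for Il1r2 (SE 1.59). As said above, Il1r2 was chosen for its gain over the same CRE- KC libraries, so its call adds nothing to this count.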

How the results depend on the processing

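Of 818 recomputed values of the 31 called or past-fold member changes, 803 kept their direction and their side of the threshold, or moved by less than 1 SD, and 0 reversed. The 13 that lost a call were all in the interaction or in Il1r1 of the AMs, and the other 2 were Il1r2 in Tim4- compared with CRE- KCs, whose fitted value rose to 12.8 and 12.7 without replicate 4, the CRE- KC library with counts. With no fold limit, the number of members called was 2 in Tim4+ KCs and 9 in CD11b+ compared with CD11b- AMs. With at least 10 counts in every sample, Il1r2 was no longer among the genes tested, nor were Il1r1 in KCs and Il18r1 in AMs. The number of members called was then 0 in Tim4+ KCs (edgeR, with 4 members at an unadjusted p under 0.05, while limma-voom and DESeq2 called 1 with the usual filter). It was 0 past the fold in both comparisons of Tim4- KCs, and 2 in CD11b+ compared with CD11b- AMs. Without a filter, or with all 33 samples in 1 fit, 4 members were past the fold in Tim4- compared with CRE- KCs. Leaving out a replicate or a library gave 1 to 3 members past the fold in that comparison, 1 to 2 in Tim4- compared with Tim4+ KCs and 2 to 5 called in the interaction, the lowest without replicate 3. All 33 samples in 1 fit ended the calls of Il1r1 in CD11b- AMs (edgeR adjusted p = 0.136) and between CD11b+ and CD11b- AMs (edgeR adjusted p = 0.116). Apart from the genes that the limit of 10 counts removed, the cause of these shifts was not tested.

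With replicate numbers fitted as a block, the number of members called or past the fold was 5 between the control macs, 1 in Tim4+ KCs, 2 in each comparison of Tim4- KCs, 4 in CD11b- AMs, 8 in CD11b+ AMs, 4 between CD11b+ and CD11b- AMs and 5 in the interaction, which equals the counts without the block. Libraries with the same number were not taken as pairs, and the labels do not say whether they share a mouse. The correlation of their deviations was 0.0936 to 0.203 between Tim4- and Tim4+ KCs (over 0.1 in 5 of 6, each library correlating best with its own number in 6 of 6). Between CD11b+ and CD11b- AMs the correlation was 0.0319 to 0.0871, and 4 of 5 libraries correlated best with their own number. Depth limits Il1rl1 and, in KCs, Il18r1, where a difference was not detectable.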

Other observations

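Il1r2 was highest in replicates 5 and 6 of both CRE+ KC groups, a pattern seen after the values were known and not tested. These replicates had 27.4 and 21.7 CPM in Tim4+ KCs, where the other 4 had 11.3 to 16.2 CPM, and 77.7 and 44.2 CPM in Tim4- KCs, where the other 4 had 21.7 to 39.4 CPM. The same replicate numbers, in all 3 KC groups, held counts of the Y-linked gene Ddx3y (1304 to 1720 a library) and none of Xist, whereas replicates 1 to 4 held at most 3 counts of Ddx3y and at least 260 of Xist. All AM libraries carried Xist. With Ddx3y as a covariate, Il1r2 in Tim4+ compared with CRE- KCs stayed called (log2 fold change 7.56, edgeR adjusted p = 4.54e-09). The gene was chosen for its gain over the same CRE- libraries and passed the filter through CRE+ libraries, so this call adds nothing. It also does not bear on the order of replicates within the CRE+ groups.

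Il1rl1, the gene for ST2, had 14 to 16 counts in Tim4+ KC replicates 4, 5 and 6 and none in replicates 1 to 3, and in AMs it had counts in replicates 3 and 4 of the CD11b- and 2 and 3 of the CD11b+ group alone. Il33, its ligand, averaged at most 1.64 CPM in any group.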
